A study of Mus musculus with 6 samples.

Results

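The genes described here are 10 genes of the contractile apparatus of skeletal muscle: Myl1, Mylpf, Myh4, Acta1, Tnni2, Tnnc2, Tnnt3, Tnnt1, Atp2a1 and Ckm. They were taken by gene symbol, as every array probe annotated to exactly 1 of these genes, which gave 13 of the 45281 probes on the array, with 3 for Myl1, 2 for Mylpf and 1 for each of the others. RNA came from the central retina of mice of the strain rd1/rd1, with 3 samples aged 8 months and 3 samples aged 2 months, and every sample pooled 3 to 6 tissue punches with a diameter of 1.5 mm. Both ages carry the rd1 mutation of Pde6b, which causes rods and then cones to degenerate, and neither was treated; samples without the mutation were not analysed here. The number of animals behind a pool is not given, so the error values measure the spread between these pools. In such bulk RNA, fewer cells of a type and less RNA per cell cannot be told apart.

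In striated muscle, myosin filaments pull on actin filaments when calcium released from the sarcoplasmic reticulum binds troponin, and a calcium pump then returns the calcium and lets the fibre relax. Most of these proteins exist as fast and slow forms, coded by separate genes that differ between fibre types. The neural retina holds no skeletal muscle. The extraocular muscles, which move the eye, insert on the outside of the globe. The 10 genes were set against age to see how much muscle transcript each retinal sample held.

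The array values come without probe sequences here, so the genes are shown by the stretch just before their start site. RefSeq promoters (GRCm38.p6) were found for 8 of the 10 genes, without Tnnt3 and Tnni2, and 4 are printed below. Those of Myl1, Atp2a1 and Mylpf belong to members that differed widely between samples, and that of Tnnt1 to the member that was bright in every sample. Each is the 250 bases before the start site, 5′ to 3′ on the gene's own strand, and capitals mark the motifs searched.
Myl1, chr1:66945057-66945306, minus strand: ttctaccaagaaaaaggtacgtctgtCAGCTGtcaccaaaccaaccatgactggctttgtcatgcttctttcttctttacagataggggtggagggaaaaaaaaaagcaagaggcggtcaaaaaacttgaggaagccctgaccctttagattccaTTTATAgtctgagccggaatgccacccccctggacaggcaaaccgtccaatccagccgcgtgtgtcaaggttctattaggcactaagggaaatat
Atp2a1, chr7:126463074-126463323, minus strand: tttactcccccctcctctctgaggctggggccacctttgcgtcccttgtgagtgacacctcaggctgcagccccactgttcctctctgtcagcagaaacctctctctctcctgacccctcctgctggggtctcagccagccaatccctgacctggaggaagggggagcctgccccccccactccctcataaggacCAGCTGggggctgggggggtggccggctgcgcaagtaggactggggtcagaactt
Mylpf, chr7:127211358-127211607, plus strand: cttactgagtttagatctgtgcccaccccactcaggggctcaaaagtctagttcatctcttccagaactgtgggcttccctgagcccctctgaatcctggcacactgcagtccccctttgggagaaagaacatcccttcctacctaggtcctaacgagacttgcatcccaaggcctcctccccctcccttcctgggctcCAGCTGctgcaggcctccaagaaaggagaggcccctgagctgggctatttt
Tnnt1, chr7:4515976-4516225, minus strand: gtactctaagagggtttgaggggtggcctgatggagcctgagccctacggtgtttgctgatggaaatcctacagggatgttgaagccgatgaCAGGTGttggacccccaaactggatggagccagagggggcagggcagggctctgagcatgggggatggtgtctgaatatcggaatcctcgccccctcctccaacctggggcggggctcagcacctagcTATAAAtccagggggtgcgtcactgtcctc

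Each motif was searched on both strands. The E-box, CANNTG, which is bound by the MyoD family of myogenic factors among others, was present in 8 of the 8 promoters, against 66.2% of all 32851 RefSeq promoters cut to the same length. The TATAAA element was present in 4 of 8 (Acta1, Myl1, Tnnt1 and Myh4), against 12.4% of all promoters. The CArG box, the site of serum response factor, was present in 2 of 8 (Acta1 and Myh4), against 1.47%, and the MEF2 site in 1 of 8 (Myh4), against 2.92%. At Myh4 one of the 3 TATAAA matches lay within the MEF2 match. A match describes the letters of the window and is not a binding site.

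Deposited log2 values ran from 6.98 to 14.5, and the median of each array was 7.19. A probe near that median is close to background, where differences are compressed. Of the 13 probes, 8 exceeded the array median on at least 3 arrays, as did 22458 of all 45281 probes. On all 6 arrays 4 of the 13 did so, a count with no share over all probes beside it. All 13 were kept in the test, which ran over all 45281 probes (limma, 8 months minus 2 months, Benjamini-Hochberg). Levels of different probes are not comparable with each other, so each gene is compared only with itself across samples.

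Most of the muscle genes were high in 2 of the 6 samples, both from 2 months of age. The counts that follow take differences of any size, down to 0.02 log2 units over the 8 month mean for Myh4 in 2 month replicate 2. They only describe the members, which were chosen with earlier results of these data known. In 2 month replicate 2, all 13 probes lay above the whole range of the 8 month samples, as did 25.1% of all probes, and 12 of 13 had their highest value of all samples there, as did 16.2% of all probes. In 2 month replicate 1, 11 of 13 lay above that range, against 25.6% of all probes. In 2 month replicate 3, 11 of 13 lay within it, 1 above and 1 below, where 47.4% of all probes lay within it. No member passed the test for a change with age (limma, 0 of 13 at an adjusted p below 0.05 and 0 of 13 at an unadjusted p below 0.05). Over all probes 0.0133% were called higher and 0.011% lower, which is 6 and 5 probes, or 6 and 3 when the arrays were normalized again with cyclic loess. At an unadjusted p below 0.05, 3.54% of all probes were higher and 3.29% lower.

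**Figure D1:**
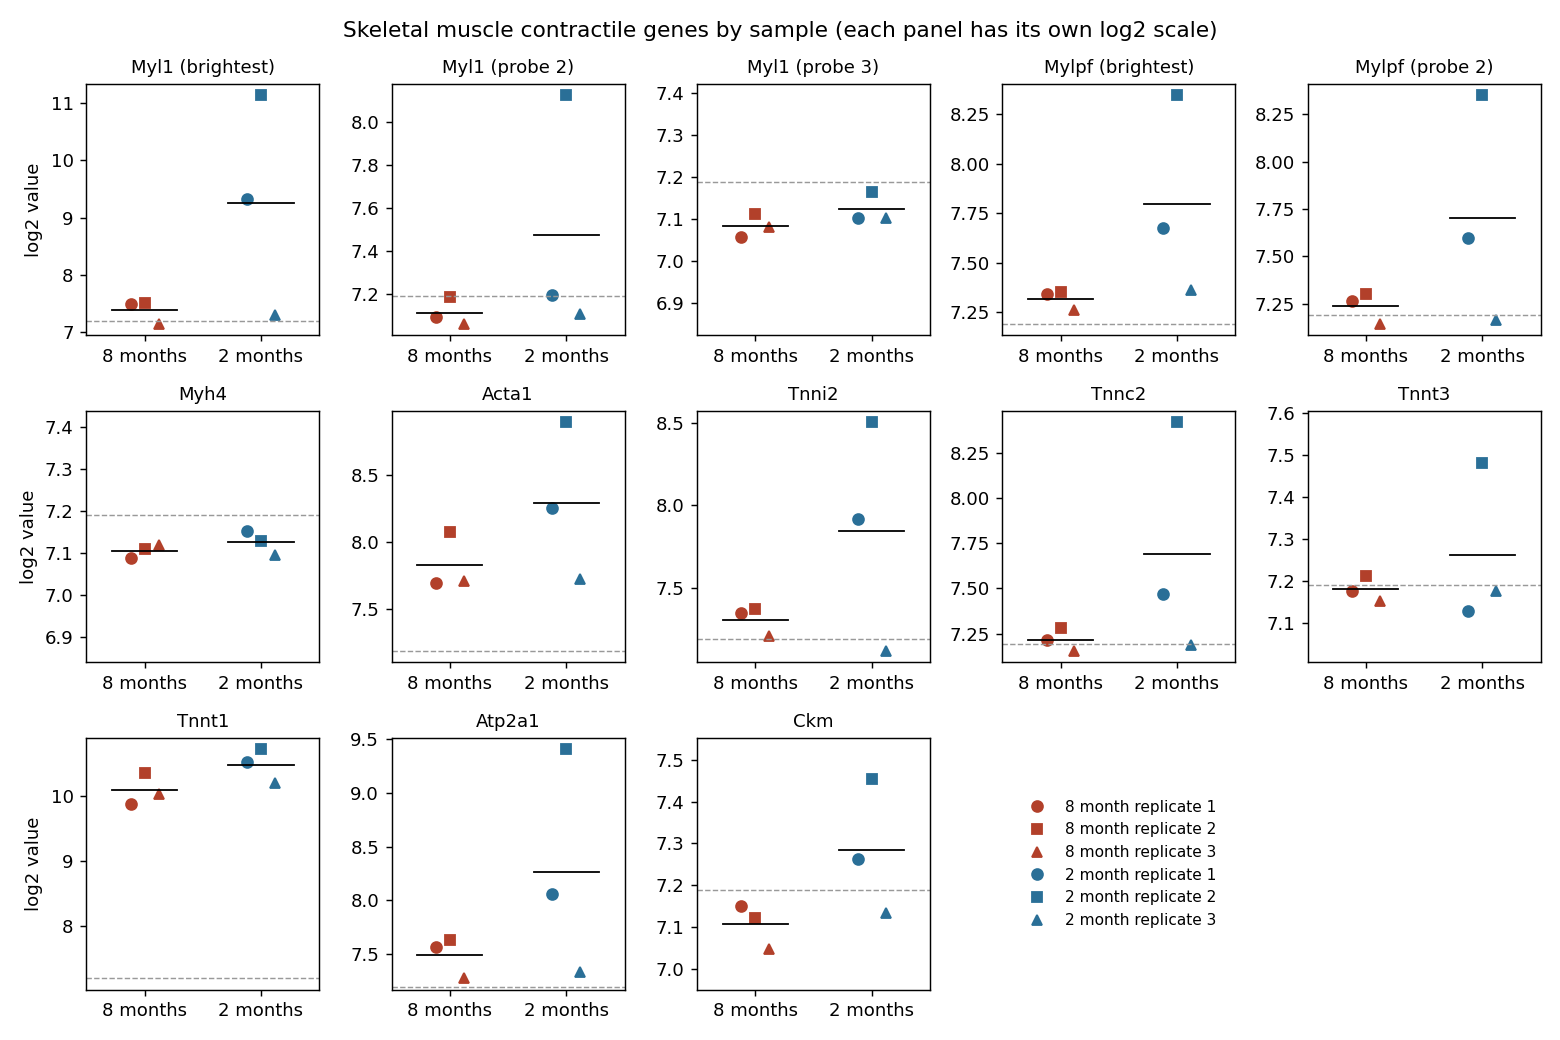
Deposited log2 value (vertical axes, 1 scale per panel) of each of the 13 muscle probes in the 8 month samples (red, left) and the 2 month samples (blue, right); symbols are replicates, the black bar is the mean of 3 samples and the dashed line is the array median of 7.19. The square for 2 month replicate 2 is the highest point in 12 of the 13 panels, Myh4 being the exception, while the triangle for 2 month replicate 3 lies among the 8 month points in most of them.

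Among the myosin genes, Myl1 codes for the essential light chain of fast fibres. Its brightest probe had log2 values of 7.48, 7.52 and 7.14 in 8 month replicates 1, 2 and 3, and of 9.32, 11.14 and 7.31 in 2 month replicates 1, 2 and 3. A pair of 2 month samples thus stood far above all 8 month samples, and the third lay between the 8 month values. Set against the mean of the 8 month samples, 2 month replicate 2 was 13.5-fold and 2 month replicate 1 3.83-fold higher, while 2 month replicate 3 was at 0.949 of it. The means were 7.38 ± 0.207 at 8 months and 9.25 ± 1.92 at 2 months (SD, n = 3 each), a change of −1.87 (SE 0.876, limma adjusted p = 0.788). The 3 probes of Myl1 differed in how much signal they gave. The second had 7.09, 7.18 and 7.06 at 8 months and 7.19, 8.12 and 7.10 at 2 months (change −0.36, SE 0.260), so only 2 month replicate 2 was clearly raised. The third, at 7.06 to 7.11 at 8 months and 7.10 to 7.17 at 2 months, stayed below the array median in every sample, with a change of −0.04 (SE 0.0299).

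Mylpf, the phosphorylatable regulatory light chain of fast fibres, had values of 7.34, 7.35 and 7.26 in 8 month replicates 1 to 3 and of 7.67, 8.35 and 7.36 in 2 month replicates 1 to 3 at its brighter probe. It was the 1 of 13 member probes whose ages did not overlap, although the highest 8 month value, 7.35, and the lowest 2 month value, 7.36, were close. Over all probes, 5.72% were lower at 8 months without overlap. The change was −0.48 (SE 0.230, limma adjusted p = 0.798). The other Mylpf probe had the same order of samples at the top, with 8.35 in 2 month replicate 2 and 7.60 in 2 month replicate 1, but 7.16 in 2 month replicate 3, within the 7.14 to 7.30 of the 8 month samples. Its change was −0.47 (SE 0.277). Myh4, the myosin heavy chain of the fastest fibres (type IIB), gave no signal above the array median in any sample. Its values were 7.09 to 7.12 at 8 months and 7.10 to 7.15 at 2 months, and the change was −0.02 (SE 0.0261, limma adjusted p = 0.960).

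Acta1 codes for skeletal alpha-actin, the main protein of the thin filament. It had 7.70, 8.08 and 7.71 in 8 month replicates 1 to 3 and 8.25, 8.89 and 7.73 in 2 month replicates 1 to 3. The ages overlapped, because 8 month replicate 2 lay above 2 month replicate 3. The change was −0.46 (SE 0.283, limma adjusted p = 0.867). Tnni2 and Tnnc2 code for the inhibitory and the calcium-binding subunit of fast troponin. Tnni2 had 7.35, 7.37 and 7.21 at 8 months and 7.92, 8.51 and 7.12 at 2 months, so that the lowest and the highest of its 6 values both came from 2 months. Tnnc2 had 7.22, 7.28 and 7.15 at 8 months and 7.47, 8.42 and 7.19 at 2 months. Their changes were −0.54 (SE 0.320, limma adjusted p = 0.865) and −0.47 (SE 0.295, limma adjusted p = 0.871).

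The subunit of troponin that binds tropomyosin, troponin T, is coded by Tnnt3 in fast and by Tnnt1 in slow fibres. Tnnt3 stood out in 1 sample only, with 7.48 in 2 month replicate 2, against 7.13 and 7.17 in 2 month replicates 1 and 3 and 7.15 to 7.21 in the 8 month samples. The change was −0.08 (SE 0.0908), and it turned to 0.03 without 2 month replicate 2. Tnnt1 was bright in every sample, between percentiles 92.9 and 96.2 of its array, with 9.88, 10.37 and 10.04 in 8 month replicates 1 to 3 and 10.53, 10.72 and 10.20 in 2 month replicates 1 to 3. The order of the 2 month samples was that of the brightest probes of the other members except Tnnt3 and Myh4. The spread, however, was alike at both ages, with means of 10.1 ± 0.249 at 8 months and 10.5 ± 0.264 at 2 months (SD, n = 3 each). The change was −0.39 (SE 0.166, limma adjusted p = 0.745), and 8 month replicate 2 lay above 2 month replicate 3.

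Atp2a1 codes for SERCA1, the calcium pump of the sarcoplasmic reticulum in fast fibres. It had 7.57, 7.63 and 7.27 in 8 month replicates 1 to 3 and 8.06, 9.41 and 7.33 in 2 month replicates 1 to 3. After Myl1 it showed the widest gap of the members, with 2 month replicate 2 at 3.77-fold the 8 month mean, yet 2 month replicate 3 was at 0.894 of it. The change was −0.77 (SE 0.487, limma adjusted p = 0.872). Ckm, the muscle creatine kinase, which regenerates ATP from phosphocreatine at the myofibril, was dim. Its values were 7.15, 7.12 and 7.05 at 8 months and 7.26, 7.45 and 7.13 at 2 months, and only 2 month replicates 1 and 2 exceeded the array median. The change was −0.18 (SE 0.0798, limma adjusted p = 0.781). The brain form of the enzyme, Ckb, which neurons and glia use, had 14.0 to 14.5 at 8 months and 14.2 to 14.3 at 2 months and did not share the pattern. Gamt, a gene of creatine synthesis, had 8.66, 8.35 and 8.59 at 8 months and 7.78, 7.73 and 7.91 at 2 months. It was higher at 8 months without overlap, as were 5.92% of all probes (change 0.73, SE 0.0869, limma adjusted p = 0.106).

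Taking the brightest probe of each gene, all 10 members had a negative change, against 49.3% of all probes, and their median was −0.47, where that of all probes was 0.00063. These figures only describe the members, which were chosen with earlier results of these data known, and they rest on single samples. Without 2 month replicate 2 the median was −0.18, with Tnnt3 positive. Without 2 month replicate 3 it was −0.71, and 9 of 13 probes had an unadjusted p below 0.05, none of them called by limma. In that fit 1789 of all 45281 probes were higher and 1744 lower at the same unadjusted threshold. Without both 2 month replicates 1 and 2, a choice made after seeing the values, 3 of 10 members had a negative change (Ckm, Mylpf and Tnnt1) and the median was 0.02. For each of the 13 probes the range over the 2 month samples was wider than that over the 8 month samples. The margin was small for the third Myl1 probe (0.0637 against 0.0552) and for Tnnt1 (0.521 against 0.489). The range over the 8 month samples was 0.489 for Tnnt1, 0.378 for Acta1, 0.374 for the brightest Myl1 probe and 0.357 for Atp2a1. For the other probes it was at most 0.163, at Tnni2. Of the 8 month samples, replicate 3 was the lowest for 9 of 13 probes. Neither count has a share over all probes beside it, and whether the spread depends on age was not tested.

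**Figure D2:**
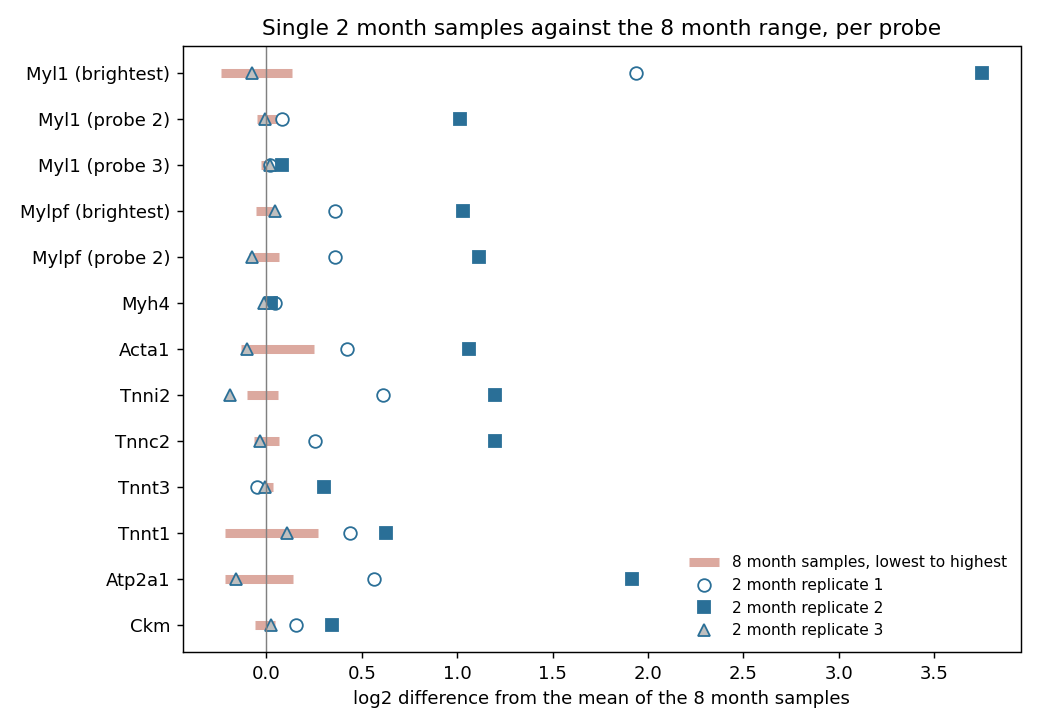
Difference on the log2 scale (horizontal axis) of each 2 month sample from the mean of the 8 month samples, for each of the 13 muscle probes (rows); the red band spans the lowest to the highest 8 month sample. Filled squares (2 month replicate 2) lie from 0.02 at Myh4 to 3.75 at Myl1, open circles (replicate 1) from −0.05 to 1.94, and grey triangles (replicate 3) from −0.19 to 0.11.

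Other muscle genes were read as lists. Of 15 genes that code for muscle forms of metabolic enzymes and related proteins, 0 passed the test (limma, 3 lower and 0 higher at an unadjusted p below 0.05), the median change was −0.09, and 8 had their highest value in 2 month replicate 2, as did 16.2% of all probes. Mb, the oxygen store myoglobin, had 7.36, 7.40 and 7.21 at 8 months and 7.46, 8.74 and 7.26 at 2 months. By far the highest was 2 month replicate 2, while 2 month replicate 1 lay just above the 8 month values and 2 month replicate 3 among them. Its dimmer probe had 7.13 to 7.15 at 8 months and 7.24, 7.50 and 7.23 at 2 months, with no overlap. Cox6a2, a cytochrome oxidase subunit of heart and skeletal muscle, had 7.35, 7.37 and 7.27 at 8 months and 7.82, 8.20 and 7.53 at 2 months, so the ages did not overlap (change −0.52, SE 0.158, limma adjusted p = 0.529). Cox8b, another subunit of the same kind, named after its values were seen, had 8.67, 9.22 and 7.79 at 8 months and 9.39, 10.26 and 8.91 at 2 months. Eno3, the muscle enolase, reached 8.65 in 2 month replicate 2, against 8.15 and 8.12 in 2 month replicates 1 and 3 and 7.96 to 8.16 at 8 months. For Pgam2, the muscle phosphoglycerate mutase, the change was −0.09 (SE 0.0467), for Pygm, the muscle glycogen phosphorylase, −0.23 (SE 0.0582, limma adjusted p = 0.410), and for Ckmt2, the mitochondrial creatine kinase of muscle, −0.12 (SE 0.105).

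Of 37 other sarcomere genes with a probe, out of 46 listed, 0 passed (limma, 1 higher and 1 lower at an unadjusted p below 0.05), the median change was −0.02, and 13 had their highest value in 2 month replicate 2, against 16.2% of all probes. The ages did not overlap for 3 that were lower at 8 months, as for 5.72% of all probes, and for 1 that was higher. Tcap, the titin cap of the Z-disc, had 7.38, 7.41 and 7.33 at 8 months and 7.43, 7.95 and 7.37 at 2 months, again with 2 month replicate 2 apart. Actn2, a Z-disc actinin, named after its values were seen, had 7.30, 7.37 and 7.22 at 8 months and 7.35, 7.64 and 7.31 at 2 months. The sarcomere genes Myh1, Myh7, Myh8, Actn3, Ttn and Neb had brightest probes between 7.08 and 7.28 in all 6 samples, near the array median, and Myl2 lay at 7.45 to 7.63. Tnnc1, the troponin C of slow and heart muscle, went against the members, with 8.39, 8.52 and 8.66 at 8 months and 8.05, 7.95 and 8.14 at 2 months (change 0.47, SE 0.0789, limma adjusted p = 0.200), the ages not overlapping. Over all probes 5.92% were higher at 8 months without overlap. Myh2 and Myh13, of which Myh13 is a myosin of extraocular muscle, were not analysed here, as no probe was annotated to them.

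Of 19 genes of excitation-contraction coupling, 0 passed (limma, 2 lower and 0 higher at an unadjusted p below 0.05), with a median of 0.01, and 5 were highest in 2 month replicate 2. At their brightest probes Ryr1, the calcium release channel, Casq1, its calcium store protein, and Sln, a regulator of SERCA, had changes of 0.004, 0.03 and 0.000 and stayed between 7.05 and 7.35. One other probe of Ryr1 and one of Sln were also highest in 2 month replicate 2. That of Ryr1 had 7.17 to 7.23 at 8 months and 7.18, 7.40 and 7.24 at 2 months, and that of Sln 7.06 to 7.08 at 8 months and 7.10, 7.28 and 7.11 at 2 months, without overlap of the ages. Pvalb, a calcium buffer of fast fibres that retinal neurons also make, was bright, at 11.3 to 11.6 at 8 months and 11.6 to 11.7 at 2 months. Of 8 genes of the neuromuscular junction 0 passed (limma, 0 at an unadjusted p below 0.05), although all 8 had a negative change, with a median of −0.03, and 3 were highest in 2 month replicate 2. The receptor subunit Chrnb1, named after its values were seen, had 7.82 to 7.84 at 8 months and 7.83, 8.07 and 7.76 at 2 months. The receptor subunits Chrna1 and Chrne and the kinase Musk lay between 7.08 and 7.27. Of 10 myogenic regulators 0 passed (limma, 1 higher and 0 lower at an unadjusted p below 0.05), and Myod1, Myog and Myf6 lay between 7.11 and 7.58.

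**Figure D3:**
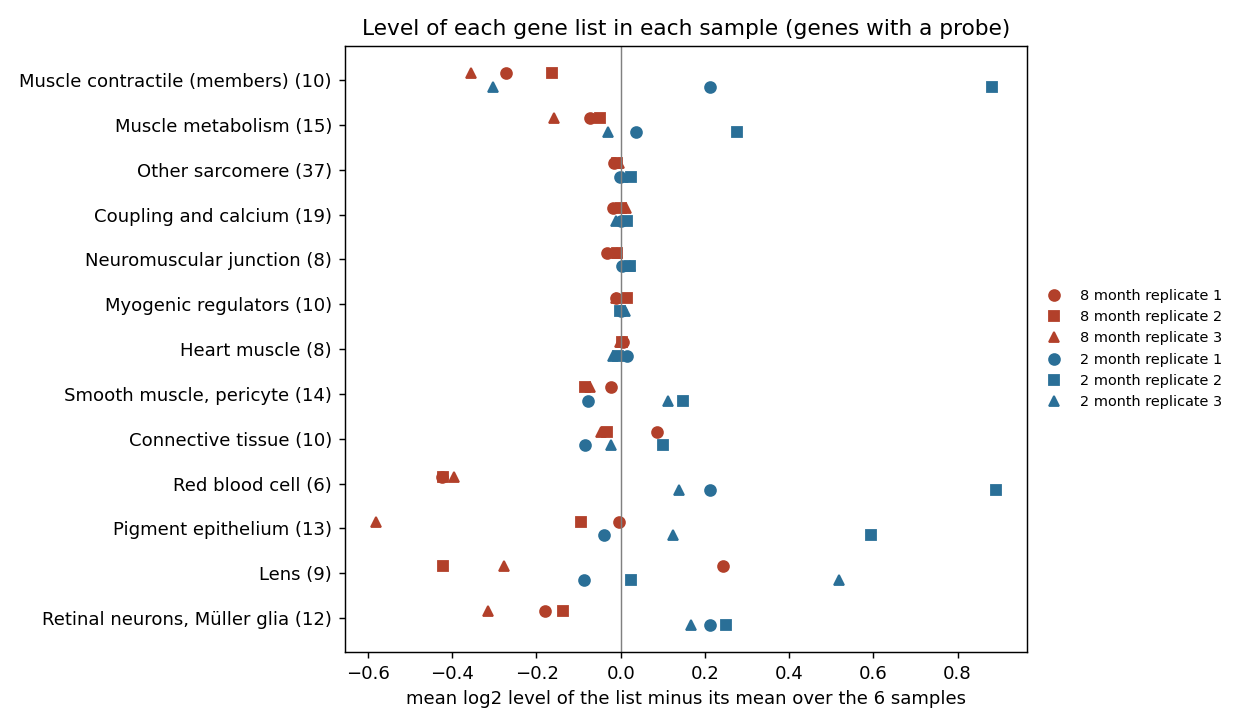
Mean log2 level of each gene list in each sample, minus the mean of that list over the 6 samples (horizontal axis); red symbols are 8 month and blue symbols 2 month samples, and the number of genes with a probe is in brackets. The muscle contractile list spans −0.36 to 0.88 with 2 month replicate 2 at the high end, as does the red blood cell list, while the other sarcomere, coupling, junction, myogenic and heart lists stay within 0.04 of their means.

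Genes of other tissues next to the neural retina also differed between the samples. The 6 red blood cell genes had a centred level of −0.42, −0.42 and −0.40 in 8 month replicates 1 to 3 and of 0.21, 0.89 and 0.14 in 2 month replicates 1 to 3, beside −0.27, −0.16 and −0.36 and then 0.21, 0.88 and −0.30 for the muscle members. The lists thus shared their highest sample, 2 month replicate 2, but not 2 month replicate 3, where the red blood cell level exceeded that of every 8 month sample. Hbb-bs, a beta-globin, showed this directly, with 9.72 to 9.83 at 8 months and 11.17, 12.38 and 10.87 in 2 month replicates 1 to 3. The list level rests mostly on Hbb-bs and the globins Hba-a1 and Hbb-bt. The globin Hbb-b2 lay between 7.09 and 7.19 and Slc4a1 between 7.185 and 7.248 in all samples. Alas2 reached 7.35 in 2 month replicate 2 but had 7.13 in 2 month replicate 1, among its 8 month values of 7.07 to 7.18. Of the 13 pigment epithelium genes 10 had their highest value in 2 month replicate 2, against 16.2% of all probes. The list was at −0.005, −0.09 and −0.58 in 8 month replicates 1 to 3 and at −0.04, 0.60 and 0.13 in 2 month replicates 1 to 3. Dct, an enzyme of melanin synthesis with the widest gap of the list, had 10.41, 10.23 and 9.13 at 8 months and 10.44, 12.28 and 10.95 at 2 months. Tyrp1 had 8.06, 7.41 and 7.44 at 8 months and 8.03, 9.56 and 8.27 at 2 months. Rpe65 had 8.08 to 9.13 at 8 months and 9.09, 9.35 and 8.83 at 2 months, above the 8 month range only in 2 month replicate 2. Best1, Ttr and Slc45a2 were highest in another sample, and Best1 was lowest in 2 month replicate 2. For the list, 2 month replicate 1, which was second highest for 10 of the 13 muscle probes, lay among the 8 month samples. The part of blood and of pigment epithelium in the muscle signal was not tested.

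Smooth muscle and pericyte genes also had their highest list level in 2 month replicate 2, but with 2 month replicate 3 close to it and 2 month replicate 1 low, at −0.02, −0.09 and −0.07 in 8 month replicates 1 to 3 and −0.08, 0.15 and 0.11 in 2 month replicates 1 to 3. Of the 14 genes, 4 were highest in 2 month replicate 2. Acta2, the smooth muscle actin, had 9.65, 9.45 and 9.08 at 8 months and 9.12, 10.23 and 10.43 at 2 months, highest in 2 month replicate 3, where the skeletal muscle genes were low. Another of its 6 probes was highest in 2 month replicate 2, with 7.82, 7.60 and 7.44 at 8 months and 7.51, 8.14 and 8.04 at 2 months. Rgs5, a pericyte gene named after its values were seen, had 7.68 to 7.85 at 8 months and 7.61, 8.09 and 7.69 at 2 months. Tagln and Myh11 stayed between 7.10 and 7.38, and Des, the intermediate filament of all muscle types, between 7.20 and 7.46, with its highest value in 2 month replicate 2. Of the 14 genes 0 passed (limma, 1 lower at an unadjusted p below 0.05). The heart muscle genes Myh6 and Mybpc3 stayed below the array median in all samples, at 7.11 to 7.18. Actc1, cardiac actin, had 7.41 to 7.50 at 8 months and 7.41 to 7.70 at 2 months, and Nppa, the atrial natriuretic peptide, 7.51 to 7.63 at 8 months and 7.34 to 7.58 at 2 months. Of 10 connective tissue genes 6 were highest in 2 month replicate 2, against 16.2% of all probes, with a median change of −0.006. Tnmd, of tendon, lay between 7.14 and 7.22, while Col1a1, a fibrillar collagen, had 7.14 to 7.15 at 8 months and 7.16, 7.31 and 7.16 at 2 months. Dcn, a proteoglycan of fibrous tissue named after its values were seen, had 9.06, 8.08 and 8.03 at 8 months and 7.85, 9.08 and 8.69 at 2 months, so 8 month replicate 1 lay close to 2 month replicate 2. Of the 10 genes 0 passed (limma, 1 higher at an unadjusted p below 0.05), and their part in the muscle signal was not tested. The fat cell gene Adipoq lay between 7.12 and 7.18. The lens gene Crygs was highest in 2 month replicate 3, at 9.28, against 8.15 and 8.23 in 2 month replicates 1 and 2 and 7.26 to 8.23 at 8 months, and Cryaa lay between 7.15 and 7.48.

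The retinal identity of the samples was checked by 12 genes of retinal neurons and Müller glia, of which 11 exceeded the array median in all 6 samples. Prkca, of rod bipolar cells, had 11.9 to 12.1 at 8 months and 12.2 to 12.4 at 2 months, and Rlbp1, of Müller glia, 12.4 to 12.9 at 8 months and 12.7 to 12.9 at 2 months. Arr3, the cone arrestin, was the 1 gene of these lists that passed (change −1.55, SE 0.129, limma adjusted p = 0.0479). It had 7.88, 7.79 and 7.39 in 8 month replicates 1 to 3 and 9.23, 9.34 and 9.15 in 2 month replicates 1 to 3, so its 2 month values lay close together where those of the muscle genes spread. The other probe of Arr3 also passed (change −1.31, SE 0.0961, limma adjusted p = 0.0396). The Y-linked gene Eif2s3y had 7.12 to 7.18 at 8 months and 7.79, 8.27 and 7.10 in 2 month replicates 1 to 3, and Xist, made from the inactive X chromosome, 10.48 to 11.08 at 8 months and 9.40, 8.73 and 11.10 in 2 month replicates 1 to 3. The samples with high muscle signal were thus those with Y-linked signal, and the part of sex in the muscle values was not tested.

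To give the proportion of the muscle genes between the 2 high samples, each value was turned to the linear scale and the mean of the 8 month samples was subtracted. For the 7 members that lay at least 0.5 log2 units above the 8 month mean in 2 month replicate 2, the excess in 2 month replicate 1 was a median of 27% of that in 2 month replicate 2. These 7 were taken for being high in the sample that is also the denominator, so the ratios only describe them. The ratio was lowest for Tnnc2 (14.7%) and Atp2a1 (17.1%), followed by Myl1 (22.6%), Mylpf (27.0%), Acta1 (31.0%), Tnni2 (40.8%) and Tnnt1 (64.6%). With the array median as the baseline the median was 32.5% and the range 16% to 86.6%. In 2 month replicate 3 the excess was between −9.68% and 12.5% of that in 2 month replicate 2, with Tnnt1 at the upper end. The proportion in 2 month replicate 1 was not particular to the members. Under the same limit and 8 month baseline its median was 27.7% (27% to 32%) for 3 red blood cell genes and 23.6% for 4 of muscle metabolism. It was 14.8% for 8 pigment epithelium genes and 89.5% for 3 retinal genes. In 2 month replicate 3 the red blood cell genes had 20.9% to 29.9%. These ratios have no error of their own, because each stands for 1 sample over another.

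Most of the members followed each other closely over the 6 samples. The correlation of a member probe with the mean of the other members was 0.956 to 0.994 for the brightest probes of Myl1, Mylpf, Tnnc2, Tnni2, Atp2a1, Acta1 and Ckm and for the second probes of Myl1 and Mylpf, 0.846 for Tnnt1, 0.834 for Tnnt3 and 0.586 for Myh4, which was at background. The third probe of Myl1 had 0.87, although it stayed below the array median in every sample. These values describe 6 arrays, of which 2 month replicate 2 lies farthest from the rest. Correlations of the members without 2 month replicates 1 and 2 were not taken. Among the 1148 other probes with 1 gene symbol and a range of at least 0.5, the 15 most like the mean profile of the members had correlations of 0.963 to 0.986. They belonged to Iqgap2 (2 probes), Uap1, Rps27l, Eif2s3y, Rtraf, Tpm2, Spint1, Hacd1, Mdk, Tst, Wls, Hbb-bt, Cox6a2 and Rap1b. Tpm2, the beta-tropomyosin, had 7.26, 7.17 and 7.15 at 8 months and 7.37, 7.77 and 7.13 at 2 months at that probe, while its brightest probe had 7.20, 7.31 and 7.22 at 8 months and 7.18, 7.53 and 7.40 at 2 months. Over the 4 samples other than 2 month replicates 1 and 2, the correlations of the 15 ran from −0.388 to 0.959, so the likeness of some of them rests on those 2 samples. The 100 most like of the 1148 probes were then sorted by list. They held 6 of the 11 red blood cell candidates, which were all probes of Hba-a1, Hbb-bs and Hbb-bt. They also held 2 of the 3 of other sarcomere genes, 2 of the 5 of muscle metabolism and 1 of the 5 of sex chromosome genes. None came from the 14 of pigment epithelium, 7 of lens, 6 of retina, 5 of smooth muscle, 3 of connective tissue or 3 of other creatine genes.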

How the data were processed

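Per the labels' protocols, RNA was column-purified with a DNase step, checked on a Bioanalyser and turned into biotinylated cRNA for Illumina single-colour bead arrays. The deposited values are log2 expression, 1 per probe and sample, read as log2 from their range. The sorted columns of the deposited table differ by at most 0.00307 at any rank, which a quantile-type normalization by the authors would give. Which software and background correction made them is not stated in the labels, no detection p-values entered, and a variance-stabilising transform would compress dim genes. The number of arrays limits the precision.

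Groups came from the titles. The descriptions number the 2 month samples differently from the titles, which were used. Gene symbols are those of GEO's platform annotation, possibly outdated: 34885 had 1 gene symbol, 18 several and 10378 none. Changes are 8 months minus 2 months, fitted with limma 3.58.1 in R 4.3.3 (lmFit, eBayes, 4 residual and 2.453 prior degrees of freedom) over all 45281 probes, with a threshold of 0.05 after Benjamini-Hochberg adjustment. No filter was used in the test, since one could admit a muscle gene through 1 age alone. A gene with several probes is given by the brightest by mean. Named genes are the members, the fixed anchors of each list that had a probe, probes that passed, and the 15 probes most like the members. Any further list genes were named after their values were seen. The scripts were tested on simulated data. The members and lists were chosen with earlier results of these data known. Alternatives were other normalizations, filters, priors and weights, 1 probe per gene, the replicate number as a block, and leaving out samples. For same-numbered samples the deviations from the group means correlated at 0.0467, 0.115 and 0.14, so the numbers were not taken as pairs.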

Additional observations from a re-analysis of the deposited data

How the results depend on the processing

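No member probe was called under any of the 16 alternatives, and adjusted p-values of the members ranged from 0.185 to 0.994 (limma). With a prior that follows the mean level, 10 of 13 had an unadjusted p below 0.05 (limma). In that fit 1553 of all 45281 probes were higher and 1496 lower at the same threshold. The direction of the members depended on samples. Leaving out 1 sample gave medians from −0.71 to −0.18, 9 to 10 negative members, and −0.149 to 0.028 for Tnnt3, positive without 2 month replicate 2. Without both 2 month replicates 1 and 2, added after seeing the data, the median was 0.021, 3 members were negative, 0 probes were called higher and 0 lower (1417 and 1714 at an unadjusted p below 0.05), and the changes that turned positive were 0.10 for Acta1, 0.16 for Atp2a1, 0.011 for Myh4, 0.007 and 0.075 for 2 probes of Myl1, 0.075 for the dimmer probe of Mylpf, 0.031 for Tnnc2, 0.19 for Tnni2 and 0.005 for Tnnt3. The cause was not tested. The excess of 2 month replicate 1 was a median of 32.5% with the array median as the baseline, against 27%.

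Over all probes, 6 were called higher and 5 lower. The lower count was 3 with cyclic loess, 3 with a filter at the array median and 2 with 1 probe per gene. A filter at the 75th percentile gave 48 higher and 47 lower, and a prior that follows the mean level 54 and 79. Leaving out 1 sample gave 0 to 5 higher and 0 to 1 lower. With the replicate block 4 were called higher and 5 lower, and 0 members were called. There 5 member probes had an unadjusted p below 0.05 (limma), beside 1798 probes higher and 1691 lower of all 45281. All 3 of the 8 month samples correlated best with their own number, a hint from the data and not from the design. Filters, the prior and 1 probe per gene leave the median of the members as it is by construction. Dim probes near 7.19, such as Myh4 and Ckm, limit what can be read of those genes.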
